A study of Arabidopsis thaliana with 30 samples.

Results

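Detached leaves of Arabidopsis thaliana were compared 12 h after detachment with leaves frozen at detachment (T0). The comparison covered all genes and kept those whose 12 h libraries both lay above, or both below, the 2 T0 libraries. The deposited values cover 37686 genes, of which 20654 were tested. Of the tested genes 9181 separated in this way (44.5%). The 17032 genes not tested did not reach 1 TPM in at least 2 of the 30 libraries of the series.

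All plants were wild type Col-0. Seedlings were 12 d old and had grown on medium with sucrose, at 22 °C, in days of 16 h light and nights of 8 h. The first pair of rosette leaves was cut where blade meets petiole, and for the 12 h group the blades lay on B5 medium without sucrose or drug (mock) in constant light. RNA came from the tissue beside the cut, so every library is a mixture of the cell types of a blade. T0 leaves came from seedlings raised and cut in the same way, with no time on B5 medium. The 12 h group thus differed from T0 in the wound's age, the loss of the rest of the plant, the medium, the light regime and possibly the time of day of harvest, and these cannot be told apart. Mock leaves at 6 h and 24 h and leaves with the auxin transport inhibitor NPA at 12 h are given for some genes only. Where NPA values are left out they may differ from mock in either direction. With NPA at 12 h LBD16 had 0.03 and 0.06 TPM, against 3.19 and 4.2 TPM in mock. RAP2.6L had 65.8 and 35.4 TPM with NPA, against 4.12 and 4.2 TPM in mock. Each group held 2 libraries. The labels do not state that the 2 libraries of a group are from different plants. The p-values therefore reflect how far libraries differ, which may be technical. In such tissue, fewer cells of a type and less RNA per cell cannot be told apart.

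A cut leaf can build a new root from cells near its veins, a process called de novo root regeneration. Wounding is known to raise jasmonate, a lipid hormone made in plastids and peroxisomes. Jasmonate is sensed when JAZ repressors are degraded and MYC transcription factors are freed. Auxin made in the blade is known to collect at the cut, where it switches on WOX11 and LBD16 in the cells that found the root. Anthocyanin genes are a known target of sugar, light and jasmonate. In that pathway MYB75 and its relative MYB90 act with bHLH proteins such as TT8 on the promoters of late enzymes.

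Promoter sequence is shown for DFR, LDOX, UGT79B1 and GSTF12, since they are the anthocyanin genes among the 15 largest rises other than MYB75, which encodes a regulator. Each stretch is the 250 bases before the gene start in RefSeq's TAIR10.1 annotation, written 5′ to 3′ on the gene's strand. Capitals mark a G-box (CACGTG, a site class of bHLH and bZIP proteins) or a MYB element (ACCNAAC, also read as GTTNGGT on the other strand). The stretch of DFR lies at chr5:17166033-17166282, that of LDOX at chr4:12006210-12006459 and that of UGT79B1 at chr5:21938397-21938646, all on the minus strand. The stretch of GSTF12 lies at chr5:5658166-5658415 on the plus strand.
DFR: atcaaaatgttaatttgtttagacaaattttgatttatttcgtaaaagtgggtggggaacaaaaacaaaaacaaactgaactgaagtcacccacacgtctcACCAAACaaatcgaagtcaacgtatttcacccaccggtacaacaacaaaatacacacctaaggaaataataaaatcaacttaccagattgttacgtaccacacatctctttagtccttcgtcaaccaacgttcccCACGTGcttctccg
LDOX: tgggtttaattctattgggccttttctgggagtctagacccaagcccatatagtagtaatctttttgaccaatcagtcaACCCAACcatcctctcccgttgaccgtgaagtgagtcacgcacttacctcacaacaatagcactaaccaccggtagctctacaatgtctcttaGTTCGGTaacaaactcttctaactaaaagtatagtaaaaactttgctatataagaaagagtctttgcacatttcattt
UGT79B1: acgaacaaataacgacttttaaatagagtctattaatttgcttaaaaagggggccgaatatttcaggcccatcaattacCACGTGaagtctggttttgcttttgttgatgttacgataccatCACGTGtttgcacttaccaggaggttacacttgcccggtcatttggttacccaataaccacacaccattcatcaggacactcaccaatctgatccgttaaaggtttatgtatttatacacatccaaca
GSTF12: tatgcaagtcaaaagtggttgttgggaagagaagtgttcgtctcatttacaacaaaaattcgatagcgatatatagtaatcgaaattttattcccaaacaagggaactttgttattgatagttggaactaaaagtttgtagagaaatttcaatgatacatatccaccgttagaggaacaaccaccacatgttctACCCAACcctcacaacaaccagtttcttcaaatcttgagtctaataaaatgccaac
DFR held 1 G-box and 1 MYB element, LDOX 2 MYB elements, UGT79B1 2 G-boxes and GSTF12 1 MYB element. Over the 24 flavonoid and anthocyanin genes that rose, 6 had a G-box in this window and 9 (37.5%) a MYB element. Over the promoters of all 27443 nuclear protein-coding genes the shares with a G-box and a MYB element were 6.49% and 14.5%. The broader E-box (CANNTG, which includes every G-box) was in 66.7% of the 24 against 55.3% of all, and the evening element of the clock (AAAATATCT) in 2 of 24 against 2.36%. These are counts of letters on both strands and no sign that a factor binds there.

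At 12 h 5716 genes separated upward (27.7% of the tested genes) and 3465 downward (16.8%). With limma and Benjamini-Hochberg adjustment over all tested genes, 3469 genes were both separated and called higher at an adjusted p under 0.05 (16.8%), and 1543 were separated and called lower (7.47%). These 5012 genes are described as risen or fallen. Counts of risen or fallen members of a gene list stand beside these shares, 16.8% and 7.47% of all tested genes. Of them 1486 rose and 599 fell at least 2-fold, and 121 rose and 10 fell at least 16-fold on the log2(TPM + 1) scale, on which low genes appear to change less than they do. At T0 584 of the risen genes were under 1 TPM in both libraries, and 96 of those had a mean of at least 10 TPM at 12 h. The reverse held for 160 fallen genes, of which 16 had a mean of at least 10 TPM at T0. Over the tested genes the log2 fold change had a median of 0.07, and of 0.01 with TMM factors. Without the demand for separation 3504 genes were called higher (17.0%) and 1556 lower (7.53%). The share of higher among these was 69.2% with TPM as deposited, 58.7% with TMM factors and 46.4% with quantile normalization.

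**Figure D1:**
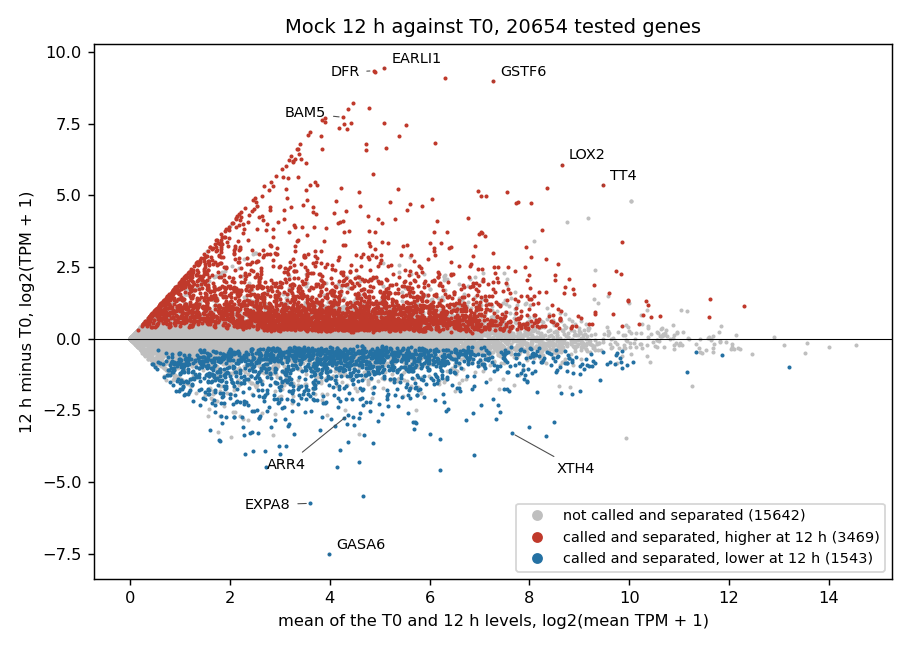
Log2 fold change of mock 12 h over T0 against the mean of the T0 and 12 h levels (log2 of mean TPM + 1) for each of 20654 tested genes, 1 point per gene, with 2 libraries per group. The 3469 risen genes (red) reach further from 0 than the 1543 fallen genes (blue), with EARLI1, DFR and GSTF6 at the top and EXPA8 and GASA6 at the bottom.

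The 2 T0 libraries stood apart from each other. Across genes, Pearson's r of their log2 values was 0.888, against 0.973 for the 12 h pair (genes are not independent replicates). They differed more than 2-fold in 4001 tested genes, against 809 for the 12 h libraries, and 650 of the risen or fallen genes are among the former. When 1 of the 4 libraries was left out in turn, 1793 genes kept the call higher (8.68% of tested genes) and 614 lower (2.97%) in all 4 fits. Each of those fits leaves 1 library in a group, so that group's pair no longer adds to the spread that limma shares over all groups. When each group was given its own spread, 729 were called higher and 154 lower. With the 2 groups fitted alone, 204 were called higher and 16 lower. The 4 libraries had 17201 to 18177 genes at 1 TPM or more, and chloroplast transcripts made up 0.0381% to 0.101% of their TPM. The sequencing depth is unknown.

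Genes of flavonoid and anthocyanin synthesis rose almost as a whole: of 27 tested members 24 rose and 0 fell, with a median log2 fold change of 2.99. Late enzymes were near 0 at T0 and abundant at 12 h. DFR (AT5G42800, dihydroflavonol reductase, the first step after the flavonol branch) stood at 0 and 0.31 TPM at T0 and at 808 and 682 TPM at 12 h (log2 fold change 9.34 ± 0.85 with an adjusted p = 3.22e-07). LDOX (AT4G22880), the next enzyme, stood at 0.13 and 0.24 TPM and then at 841 and 658 TPM (log2 fold change 9.30 ± 0.98, adjusted p = 1.85e-06). UGT79B1, which adds a sugar to anthocyanins, went from 0.03 and 0.17 TPM to 213 and 196 TPM (log2 fold change 7.55 ± 0.84). All 3 genes were under 1 TPM in both T0 libraries and at 196 TPM or more in both 12 h libraries. GSTF12, needed to carry anthocyanins to the vacuole, went from 3.15 and 0.24 TPM to 463 and 381 TPM (log2 fold change 7.54 ± 0.77), and the malonyltransferase gene 5MAT from 0.03 and 0.23 TPM to 84.7 and 85.5 TPM (log2 fold change 6.26 ± 0.80).

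The regulators of the late enzymes rose with them. MYB75 (AT1G56650) went from 0.49 and 0.33 TPM to 247 and 215 TPM (log2 fold change 7.36 ± 0.61, adjusted p = 1.16e-07) and MYB90 from 0.06 and 0 TPM to 84.9 and 81.7 TPM (log2 fold change 6.36 ± 0.69). TT8 went from 0.21 and 0.11 TPM to 29.6 and 22.5 TPM (log2 fold change 4.53 ± 0.69), a call lost with a spread of its own for each group (adjusted p = 0.0758). MYBL2, a repressor of the pathway, also rose, from 5.71 and 5.59 TPM to 51.3 and 28.5 TPM (log2 fold change 2.56 ± 0.42). The partners EGL3 and TTG1 did not pass the test (log2 fold changes 0.28 and 0.02), nor did the relative MYB113, listed at 0 at T0 and at 0.16 and 0.46 TPM at 12 h.

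Early steps of the pathway, shared with colourless flavonols, were already abundant in T0 replicate 1. TT4 (AT5G13930), chalcone synthase, stood at 409 and 7.29 TPM at T0 and at 2525 and 2244 TPM at 12 h (log2 fold change 5.35 ± 1.14 with an adjusted p = 0.00203). F3H stood at 207 and 2.25 TPM and then at 1139 and 864 TPM (log2 fold change 5.26 ± 1.36), and FLS1, flavonol synthase, at 109 and 3.61 TPM and then at 297 and 270.5 TPM (log2 fold change 3.66 ± 0.92). Both 12 h libraries lay above the higher T0 library in each of these genes, which the rule for a rise demands. T0 replicate 2 was more than 2-fold below replicate 1 in 11 members of the list. PAL1, the entry enzyme of phenylpropanoids, had 316 and 49.8 TPM at T0 and 856 and 695 TPM at 12 h. Without T0 replicate 2 the calls of PAL1, F3H and FLS1 were lost (adjusted p up to 0.0788, 0.137 and 0.0923 over the 4 fits that leave out a library). Without T0 replicate 2 the list had 17 risen members, 16 members rose in all 4 such fits, and 9 rose with a spread for each group. The order over time differed within the list: at 6 h MYB75 was at 239 and 423 TPM and DFR at 25.1 and 129 TPM, and DFR, TT7 and MYBL2 were higher at 12 h than at 6 h (log2 differences 3.67, 5.08 and 1.98, limma adjusted p = 0.0137, 0.0146 and 0.0088).

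**Figure D2:**
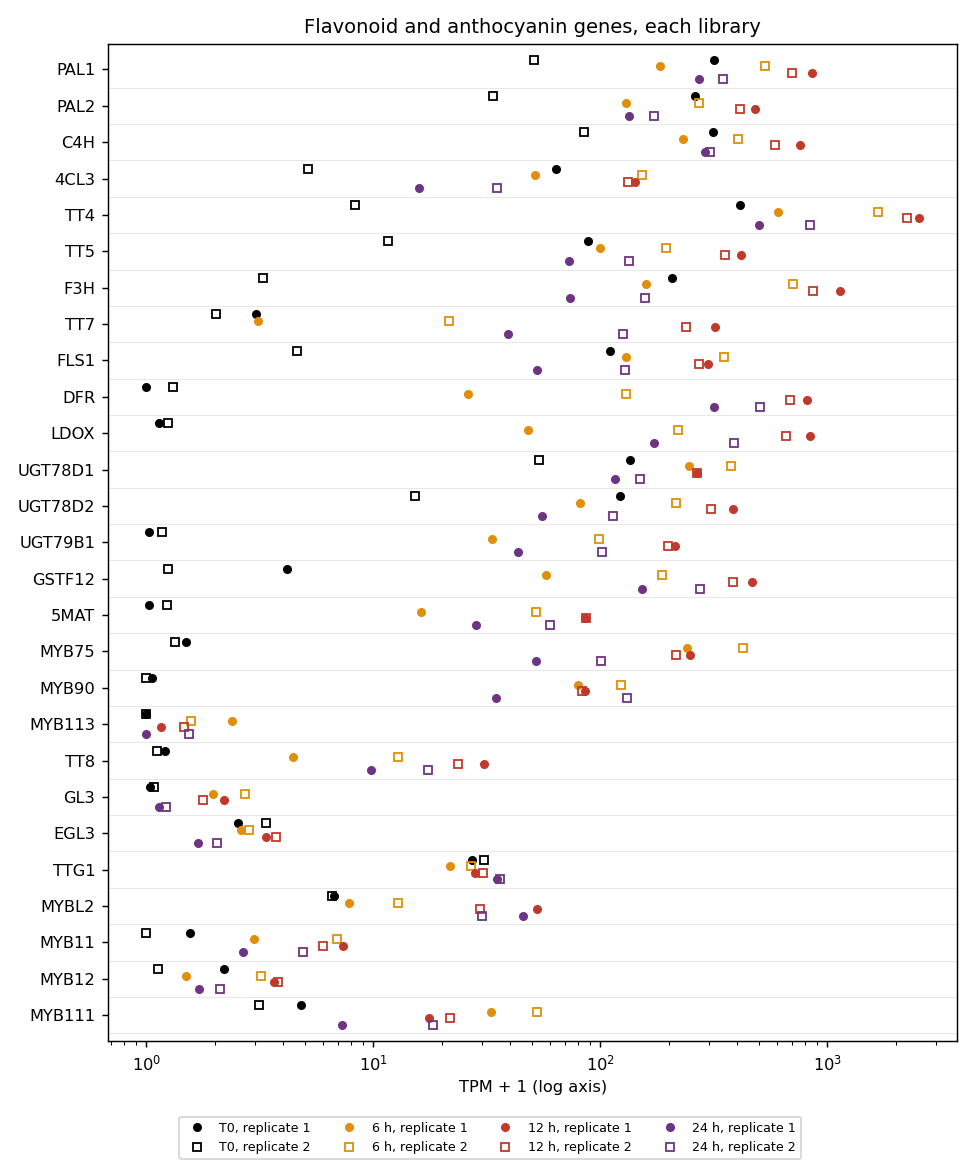
TPM + 1 (log axis) of the 27 tested flavonoid and anthocyanin genes in each library of T0, 6 h, 12 h and 24 h, filled circles for replicate 1 and open squares for replicate 2. DFR, LDOX, UGT79B1, 5MAT, MYB75 and MYB90 sit near 1 at T0 and far to the right at 12 h, while T0 replicate 1 lies close to the later libraries for PAL1, PAL2 and C4H.

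Jasmonate synthesis genes rose in 7 of 17 tested members with 0 falling (median log2 fold change 0.51). LOX2 (AT3G45140), the plastid lipoxygenase of wound jasmonate, stood at 6.03 and 142 TPM at T0 and at 1972 and 2281 TPM at 12 h (log2 fold change 6.06 ± 0.84 with an adjusted p = 3.73e-05). AOS, the next enzyme, went from 64.6 and 134 TPM to 752 and 602 TPM (log2 fold change 2.84 ± 0.33, adjusted p = 5.5e-06). The cyclase genes AOC1 and AOC2 went from 2.6 and 10.7 TPM to 202 and 151 TPM and from 3.92 and 167 TPM to 585 and 983 TPM (log2 fold changes 4.76 and 4.72). These copies are near-identical, so the split of reads between them is uncertain. OPR3, the reductase of the peroxisomal part, did not separate: it had 12.9 and 106 TPM at T0 and 76.7 and 102 TPM at 12 h (log2 fold change 1.21 ± 0.61 with an adjusted p = 0.164). In this list T0 replicate 2 was more than 2-fold above replicate 1 in 12 members and below it in 0. With a spread for each group 4 members rose, and with the 2 groups fitted alone 0 rose.

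Outputs of jasmonate and enzymes that inactivate it rose in 14 of 18 members, with a median of 2.31 and 0 falling. The storage protein genes VSP1 and VSP2 went from 0.15 and 6.63 TPM to 399 and 394 TPM and from 2.92 and 99.2 TPM to 687 and 672 TPM (log2 fold changes 7.07 and 5.10). CORI3 (AT4G23600), of the tyrosine transaminase family, went from 0.61 and 4.98 TPM to 703 and 411 TPM (log2 fold change 7.44 ± 0.52, adjusted p = 1.27e-08). JRG21, an oxidase that removes jasmonic acid, went from 0.16 and 1.42 TPM to 49.97 and 27.1 TPM (log2 fold change 4.50 ± 0.49), and ST2A, a sulfotransferase of hydroxyjasmonate, from 0.11 and 0.08 TPM to 3.74 and 5.95 TPM (log2 fold change 2.39 ± 0.35). ST2A and the jasmonate hydroxylase genes CYP94B1 and CYP94B3 were lower at 12 h than at 6 h (log2 differences -2.49, -1.06 and -2.12, limma adjusted p = 0.0006, 0.0243 and 0.00026). The defensin gene PDF1.2, of the branch that needs ethylene as well, went the other way, from 12.1 and 0 TPM at 6 h to 73.4 and 59.2 TPM at 12 h and 196 and 257 TPM at 24 h, and its T0 values were 1.62 and 0.28 TPM. Reads of PDF1.2 and its copies PDF1.2b and PDF1.3 may be exchanged in counting. Of the 14 risen members 9 held in all 4 fits and 3 with a spread for each group. T0 replicate 2 was more than 2-fold above replicate 1 in 8 members.

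In jasmonate signalling 8 of 19 members rose and 0 fell (median 0.51). With a spread for each group 2 rose. T0 replicate 2 was more than 2-fold above replicate 1 in 10 members and below it in 1. The largest rise was in the repressor gene JAZ9, from 67.5 and 61.1 TPM to 258 and 292 TPM (log2 fold change 2.08 ± 0.30, adjusted p = 7.16e-05), followed by JAZ3 and JAZ6 (log2 fold changes 1.69 and 1.48). MYC2 (AT1G32640), the main activator, had 21.1 and 99.7 TPM at T0 and 26.7 and 31.4 TPM at 12 h, within the range of T0 (log2 fold change -0.66 ± 0.75, adjusted p = 0.586). The receptor gene COI1 had a log2 fold change of 0.15 and was not called. Of the 8 risen members 3 held in all 4 fits.

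**Figure D3:**
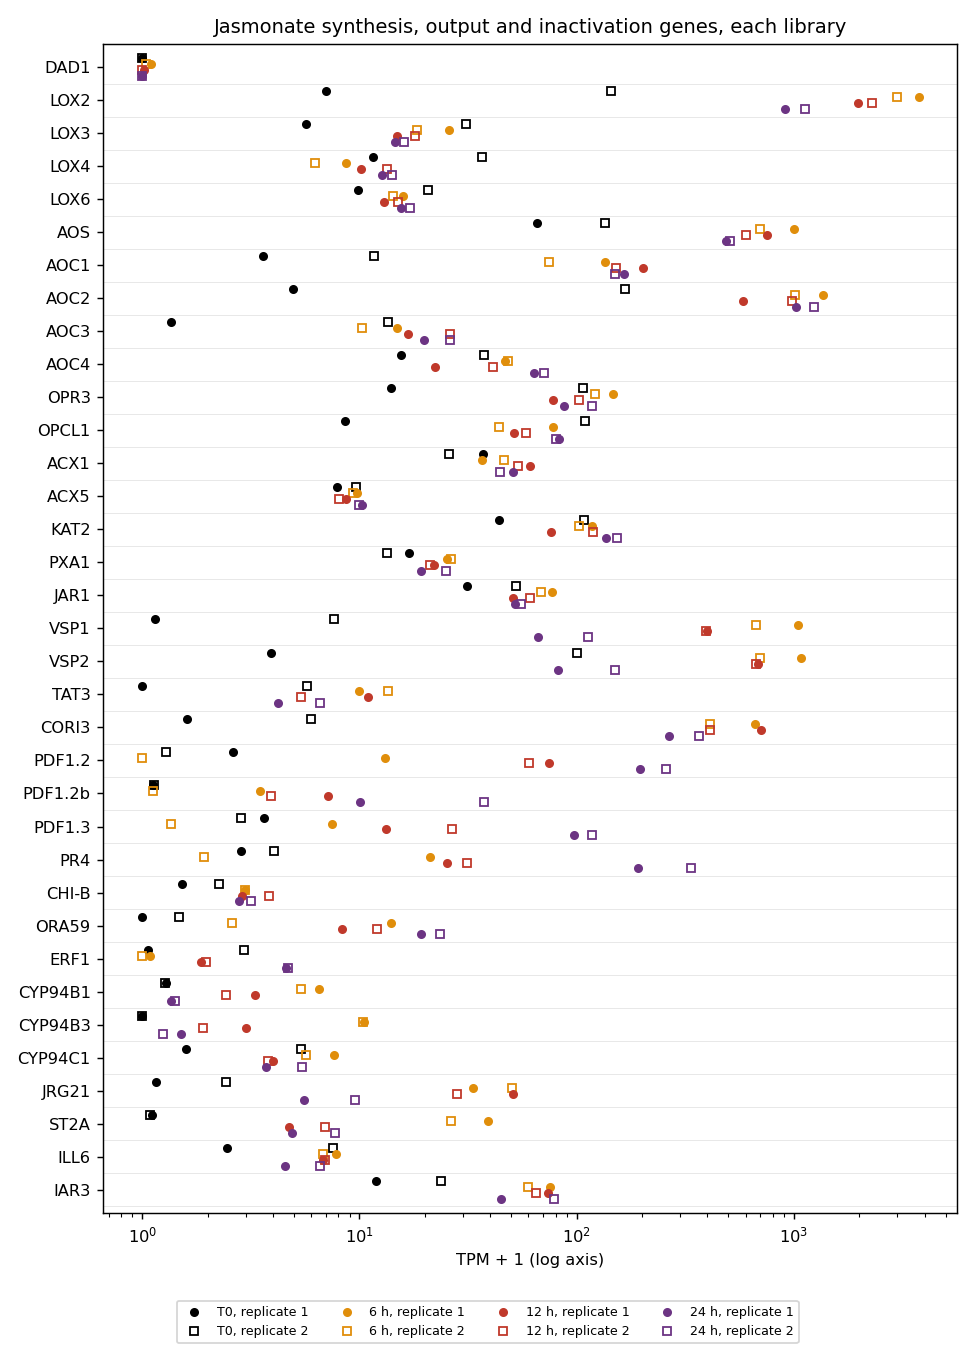
TPM + 1 (log axis) of 17 jasmonate synthesis genes (DAD1 to JAR1) and 18 output and inactivation genes (VSP1 to IAR3) in each library, filled circles for replicate 1 and open squares for replicate 2. LOX2, AOS, VSP1, VSP2 and CORI3 lie far right of both T0 libraries at 12 h, and the T0 squares lie to the right of the T0 circles in most synthesis genes.

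Among 20 wound and stress transcription factor genes 4 rose and 3 fell, beside 16.8% risen and 7.47% fallen of all tested genes. ERF115, a regulator of stem cell division after damage in roots, went from 0 and 0.05 TPM to 7.8 and 10.54 TPM (log2 fold change 3.3 ± 0.14, adjusted p = 1.75e-11) and was higher at 12 h than at 6 h (log2 difference 0.80, adjusted p = 0.00311). ANAC071 and RAP2.6L, both known from tissue reunion in cut stems, went from 0 and 0.05 TPM to 3.61 and 7.46 TPM and from 0.1 and 0.06 TPM to 4.12 and 4.2 TPM. RAP2.6 was listed at 0 in both T0 libraries and stood at 22 and 22.4 TPM at 6 h and 7.72 and 3.18 TPM at 12 h. These 4 rises were called with each library left out and with a spread for each group. ERF5, ERF6 and CBF2 fell, ERF6 from 12.8 and 122 TPM to 2.04 and 7.97 TPM (log2 fold change -2.98 ± 0.75, adjusted p = 0.00715), and 0 of the 3 held in all 4 fits. ERF6 lost its call without T0 replicate 2 and without 12 h replicate 1 (adjusted p up to 0.113 over the 4 fits). ERF109, which links jasmonate to auxin synthesis in wounded leaves and roots, had 0.04 and 2.01 TPM at T0 and 2.1 and 0.16 TPM at 12 h and did not pass the test (log2 fold change 0.10 ± 0.57, adjusted p = 0.943).

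Genes of tryptophan and auxin synthesis rose in 7 of 14 tested members with 0 falling (median 0.78). With a spread for each group 3 rose, and with the 2 groups fitted alone 0 rose. TSA1 (AT3G54640) and TSB2, subunits of tryptophan synthase, went from 37.4 and 40.5 TPM to 155 and 130.2 TPM and from 7.47 and 4.48 TPM to 27.4 and 20.01 TPM (log2 fold changes 1.84 and 1.84). PAT1 went from 27.5 and 41.3 TPM to 93.5 and 98.5 TPM (log2 fold change 1.48 ± 0.19). TSA1 had 495 and 435 TPM at 6 h and was lower at 12 h (log2 difference -1.70, adjusted p = 0.000586). The YUC genes of the last step were low: YUC6 rose from 1.75 and 1.09 TPM to 3.14 and 2.83 TPM, and YUC1, YUC4, YUC7 and YUC9 were not tested, being near 0.

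Auxin response genes rose in 10 of 22 members and fell in 1 (median 0.70). GH3.3 and GH3.5, which conjugate auxin to amino acids, went from 0.11 and 0.55 TPM to 3.63 and 5.29 TPM and from 6 and 5.62 TPM to 22.2 and 22.3 TPM (log2 fold changes 2.04 and 1.77). The repressor gene IAA5 went from 4.06 and 1.45 TPM to 7.29 and 17.2 TPM (log2 fold change 1.8 ± 0.32) and IAA30 from 0.47 and 1.64 TPM to 4.53 and 5.12 TPM (log2 fold change 1.56 ± 0.24). ARF5, an activator of auxin targets, rose from 3.03 and 4.21 TPM to 8.93 and 10.2 TPM (log2 fold change 1.2 ± 0.18), and IAA16 was the member that fell (log2 fold change -0.52 ± 0.12), a call lost without 12 h replicate 1 (adjusted p = 0.0767). Of the 10 risen members 7 held in all 4 fits and 2 with a spread for each group. In auxin transport 3 of 15 members rose and 4 fell, beside 16.8% risen and 7.47% fallen of all tested genes. The transporter gene ABCB4 went from 0.66 and 0.72 TPM to 4.65 and 5.31 TPM (log2 fold change 1.82 ± 0.18, adjusted p = 7.11e-07). The influx carrier genes AUX1, LAX1 and LAX3 fell (log2 fold changes -0.68, -0.90 and -0.86), and ABCB19 fell from 29.3 and 50.9 TPM to 14.4 and 16.4 TPM (log2 fold change -1.28 ± 0.21). Of these 7 calls 2 rises and the fall of ABCB19 held in all 4 fits, and 6 members fell with TMM factors and 7 with quantile normalization.

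Of 14 tested root founder genes 5 rose and 0 fell, and all 5 stayed low. LBD16 (AT2G42430) went from 0.04 and 0.04 TPM to 3.19 and 4.2 TPM (log2 fold change 2.17 ± 0.22, adjusted p = 1.55e-06). WOX11 (AT3G03660) was listed at 0 in both T0 libraries and had 0.36 and 0.61 TPM at 6 h, 1.07 and 1.54 TPM at 12 h and 2.08 and 3.94 TPM at 24 h (adjusted p = 0.000238 at 12 h, and 0.164 with a spread for each group). GATA23, which marks founder cells of lateral roots, went from 0 and 0.11 TPM to 2.55 and 3.43 TPM (log2 fold change 1.91 ± 0.27). PLT3 and PLT5 rose by less than 1 on the log2 scale (0.73 and 0.72), and both lost their calls without either 12 h library. Thus LBD16, GATA23 and WOX11 held in all 4 fits, and LBD16 alone was called with a spread for each group. Of the 21 annotated members 7 were not tested. WOX12, LBD29, PLT1 and PLT2 were at 0 or near it in every T0 and 12 h library.

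Carbohydrate genes changed in both directions. Of 21 starch and sugar genes 10 rose and 1 fell (median 1.69). With a spread for each group 5 rose and 0 fell. T0 replicate 2 was more than 2-fold above replicate 1 in 8 members and below it in 5. BAM5 (AT4G15210), a cytosolic beta-amylase, went from 0.21 and 0.34 TPM to 386 and 186 TPM (log2 fold change 7.72 ± 0.77, adjusted p = 1.14e-06), and GPT2, which carries glucose phosphate into plastids, from 0.14 and 0.24 TPM to 215 and 119 TPM (log2 fold change 7.08 ± 0.57, adjusted p = 7.99e-08). APL3 and APS1 (AT5G48300), subunits of the first enzyme of starch synthesis, went from 9.06 and 11.7 TPM to 346 and 228 TPM and from 239 and 315 TPM to 871 and 772 TPM (log2 fold changes 4.64 and 1.57). SEX4, a phosphatase of starch breakdown, went from 5.57 and 97.9 TPM to 309 and 347 TPM (log2 fold change 3.69 ± 0.72). The sugar uptake gene STP1 fell (log2 fold change -1.19 ± 0.25). In the list drawn up as sugar starvation markers 4 of 15 fell and 1 rose (median -0.81). The list does not give a known direction for each member. DIN10 fell from 21.1 and 65.1 TPM to 6.04 and 6.59 TPM (log2 fold change -2.39 ± 0.59), TPS9 from 10.6 and 19.9 TPM to 2.98 and 2.37 TPM (log2 fold change -2.09 ± 0.37) and SEN1 (AT4G35770) from 16.5 and 4.72 TPM to 0.79 and 0.28 TPM (log2 fold change -2.72 ± 0.63). TPS5 was the member that rose (log2 fold change 2.16 ± 0.31). The call of SEN1 was lost without T0 replicate 1 and that of DIN10 without T0 replicate 2, and the falls of TPS9 and MCCA held in all 4 fits.

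The deepest falls were in genes of growing cell walls and in GASA6. GASA6 (AT1G74670), of a family of gibberellin-responsive small proteins, went from 175 and 256 TPM to 0 and 0.33 TPM (log2 fold change -7.53 ± 0.73, adjusted p = 7.72e-07). EXPA8, an expansin that loosens walls, went from 88.1 and 86.5 TPM to 0.44 and 0.89 TPM (log2 fold change -5.74 ± 0.57, adjusted p = 9.58e-07). XTH17, a xyloglucan-modifying enzyme, went from 39.3 and 13 TPM to 0.67 and 0.47 TPM (log2 fold change -3.92 ± 0.40) and BXL1, a wall xylosidase, from 27 and 11.9 TPM to 0.28 and 0.09 TPM (log2 fold change -4.00 ± 0.66). XTH4 was abundant at T0 and fell from 651 and 579.9 TPM to 46.6 and 81.7 TPM (log2 fold change -3.29 ± 0.33, adjusted p = 1.09e-06). The 33 wall-loosening genes as a list did not move one way: 9 rose and 9 fell. Among the risers were EXPA4 from 31.8 and 33 TPM to 148 and 168 TPM (log2 fold change 2.25 ± 0.12, adjusted p = 3.66e-10), XTH31 from 76.4 and 21.8 TPM to 309 and 188 TPM (log2 fold change 2.53 ± 0.46) and XTH23 from 0.3 and 0.11 TPM to 11.4 and 3.32 TPM (log2 fold change 2.61 ± 0.41). XTH20 was listed at 0 in both T0 libraries and had 3.13 and 8.78 TPM at 12 h. Of these, 6 rises and 8 falls held in all 4 fits.

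Cytokinin response genes fell. Of 12 tested cytokinin genes 7 fell and 1 rose (median -1.13), and 6 of the 7 were type-A response regulators, which cytokinin is known to switch on quickly. ARR4 went from 52.4 and 49.2 TPM to 7.62 and 6.82 TPM (log2 fold change -2.66 ± 0.21, adjusted p = 5.65e-08) and ARR7 from 24.8 and 18.3 TPM to 1.92 and 2.58 TPM (log2 fold change -2.79 ± 0.37, adjusted p = 2.24e-05). ARR5 went from 3 and 6.96 TPM to 0.03 and 0.28 TPM (log2 fold change -2.30 ± 0.32) and ARR6 from 5.76 and 2.58 TPM to 0.03 and 0.17 TPM (log2 fold change -2.16 ± 0.23). These 4 falls held in all 4 fits and with a spread for each group. The other falls were in ARR8, ARR9 and the cytokinin oxidase gene CKX4 (log2 fold changes -0.83, -1.44 and -1.74), and these did not hold in all 4 fits. IPT7, a synthesis gene listed at 0 in both T0 libraries, was the member that rose and stood at 0.76 and 0.63 TPM at 12 h.

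Other large falls included water channel genes and a gene of secondary metabolism. The tonoplast aquaporin genes DELTA-TIP and TIP2 fell from 1431 and 713 TPM to 84 and 109 TPM and from 1199 and 705 TPM to 194 and 78.3 TPM (log2 fold changes -3.38 and -2.89). With NPA at 12 h DELTA-TIP stood at 59.3 and 87.5 TPM and TIP2 at 558 and 694 TPM, and mock and NPA were not tested against each other here. DGR2, a wall protein gene, fell from 561 and 410.4 TPM to 26 and 29.8 TPM (log2 fold change -4.06 ± 0.46), SNG1, of sinapoyl malate synthesis, from 198 and 110.4 TPM to 12.6 and 19.9 TPM (log2 fold change -3.15 ± 0.60) and the sulfate transporter gene SULTR3;5 from 9.64 and 10.1 TPM to 0.73 and 0.54 TPM (log2 fold change -2.74 ± 0.23). BT5, SIS and PRA1.F1 also fell (log2 fold changes -2.93, -3.09 and -3.28). The calls of THI2.2 (log2 fold change -3.65), a thionin gene, and HSPRO2 (-2.90) were lost without T0 replicate 1.

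Among rises outside these groups were surface and wall protein genes. EARLI1 (AT4G12480), a lipid-transfer-like wall protein, had 0 and 0.61 TPM at T0, 651 and 313 TPM at 6 h and 769 and 994 TPM at 12 h (log2 fold change 9.43 ± 0.37 with an adjusted p = 5.81e-12). Its neighbour AZI1, known from systemic immunity, went from 0.07 and 0.48 TPM to 360.4 and 398 TPM (log2 fold change 8.24 ± 0.37). These copies can share reads. EXT4, an extensin, went from 0.19 and 0.36 TPM to 316 and 347 TPM (log2 fold change 8.03 ± 0.20) and LTP2 from 0.2 and 1.07 TPM to 265 and 235 TPM (log2 fold change 7.31 ± 0.33). GSTF6, a stress glutathione transferase with a near-identical copy, went from 0.56 and 15.7 TPM to 2921 and 2283 TPM (log2 fold change 8.99 ± 0.64), the highest 12 h level among the 15 largest rises. TH8, a thioredoxin, was listed at 0 in both T0 libraries and had 178 and 103 TPM at 12 h. CSLA01, a mannan synthase gene, stood at 0.03 and 0 TPM at T0, 58.3 and 167 TPM at 6 h, 199 and 205 TPM at 12 h and 0.32 and 4.12 TPM at 24 h, and its call at 12 h was lost with a spread for each group.

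Glucosinolates are sulfur-containing defence compounds of this plant family. Of 28 tested genes of their synthesis, regulation, transport and breakdown 14 rose and 0 fell (median 0.84). MAM3, of side chain elongation, went from 0 and 0.02 TPM to 36 and 21.9 TPM (log2 fold change 4.85 ± 0.55, adjusted p = 4.94e-06). BCAT4 and MAM1, of the same steps, went from 27.5 and 86.3 TPM to 283 and 256 TPM and from 69.5 and 185 TPM to 516 and 432 TPM (log2 fold changes 2.44 and 2.05). The regulator genes MYB28 and MYB29 did not pass the test (-0.20 and 0.02). With a spread for each group 1 member was called, and 11 held in all 4 fits. With quantile normalization 13 rose and 2 fell, and without T0 replicate 1 13 rose and 4 fell. Camalexin and salicylate genes rose in 5 of 18 members, PAD3, the last step of camalexin, from 0.11 and 0.18 TPM to 7.51 and 9.59 TPM (log2 fold change 3.05 ± 0.33) and PR5 from 7.45 and 11 TPM to 64.1 and 52.2 TPM (log2 fold change 2.55 ± 0.33). Of these 3 held in all 4 fits, and without T0 replicate 1 4 rose and 5 fell.

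The list counts that follow stand beside 16.8% risen and 7.47% fallen of all tested genes, and several are near those shares. In the ethylene list 3 of 20 rose and 3 fell. The synthase genes ACS2, ACS7 and ACS8 rose from near 0, ACS2 from 0.02 and 0 TPM to 3.78 and 6.81 TPM (log2 fold change 2.6 ± 0.22), while ACS6 and EIL1 were among those that fell (log2 fold changes -1.42 and -0.64). No fall in this list held in all 4 fits, while the 3 rises did: ACS6 lost its call in each of the 4 (adjusted p up to 0.135) and EIL1 without T0 replicate 2 (adjusted p = 0.0508). Of 29 abscisic acid genes 8 rose and 1 fell, and 2 rises and 0 falls held in all 4 fits. Without 12 h replicate 1 4 rose, and without 12 h replicate 2 3 rose. The 4 largest rises were in CYP707A2, COR15A, KIN1 and CYP707A1 (log2 fold changes 2.99, 2.77, 2.51 and 2.35). CYP707A2 and CYP707A1, which break the hormone down, were the 2 that held, and went from 0.17 and 0.88 TPM to 11.3 and 10.3 TPM and from 1.09 and 2.43 TPM to 12.5 and 12.9 TPM. COR15A and KIN1, known from cold and drought, lost their calls without T0 replicate 1, and COR15A had 18.2 and 346 TPM at T0 and 621 and 500.4 TPM at 12 h. Of 18 senescence and chlorophyll breakdown genes 7 rose and 1 fell, and 5 rises and 0 falls held in all 4 fits. WRKY6 went from 2.64 and 3.53 TPM to 17.8 and 18.9 TPM (log2 fold change 2.25 ± 0.16, adjusted p = 1.73e-08) and ACD2, PPH and PAO, enzymes of chlorophyll breakdown, had log2 fold changes of 1.15, 1.11 and 0.95. SAG12, the usual marker of late senescence, was listed at 0 in all 4 libraries. In the nitrate list 4 of 13 rose and 1 fell, of which 3 rises held, NRT1.7 from 33.7 and 17.1 TPM to 120.1 and 127 TPM (log2 fold change 2.31 ± 0.26). In gibberellin and GASA genes 3 of 18 rose and 3 fell, of which 2 rises and 1 fall held, with the receptor gene GID1B up from 1.76 and 0.79 TPM to 11.8 and 7.4 TPM. The hypoxia list had 4 risen and 0 fallen of 10, of which 2 held, with ADH1 at 2.67 and 2.69 TPM and then 11.2 and 9.06 TPM. Of 8 heat shock genes 0 rose and 2 fell, and in this list T0 replicate 1 was more than 2-fold above replicate 2 in 7 members, and of 25 cuticle and suberin genes 2 rose and 3 fell. In these last 2 lists 0 calls held in all 4 fits.

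**Figure D4:**
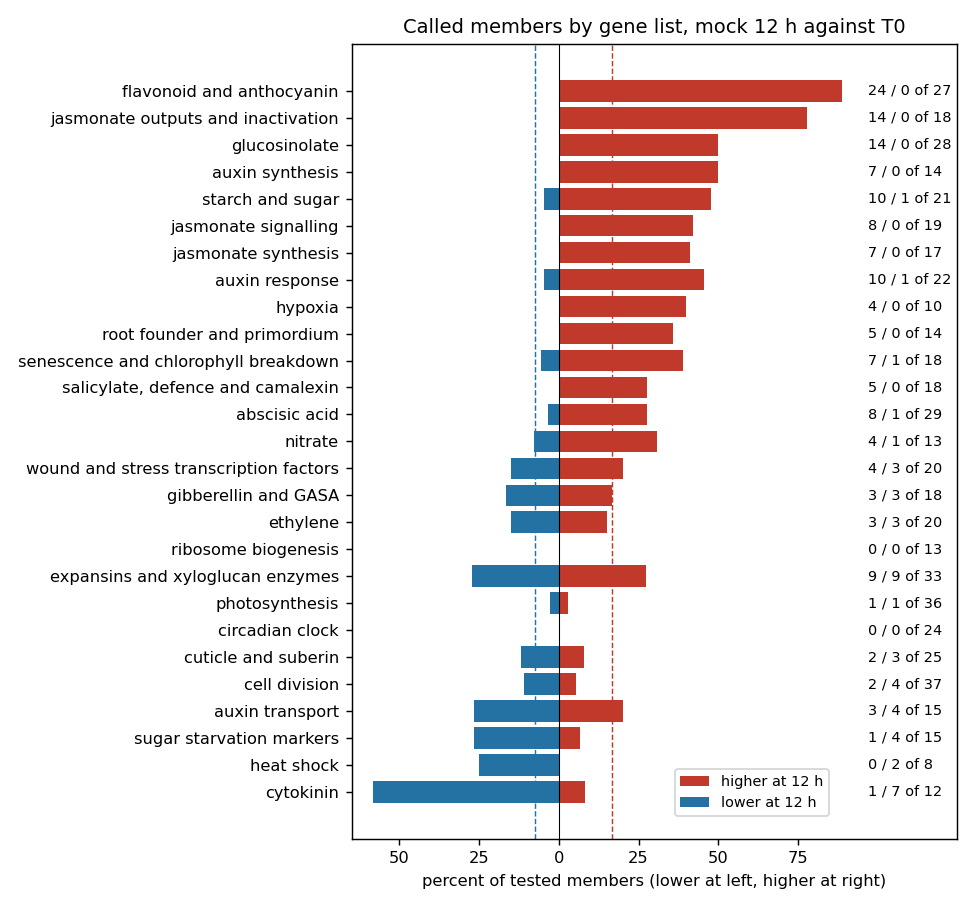
Percent of tested members of each of 27 gene lists that rose (red, right) or fell (blue, left) in mock 12 h against T0, with the counts at the right. Dashed lines mark the shares of all tested genes, 16.8% higher and 7.47% lower, and the flavonoid, jasmonate output and cytokinin lists reach furthest beyond them.

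Some processes showed few or no calls. Of 36 photosynthesis genes 1 rose (NPQ4, which acts in heat dissipation, log2 fold change 0.75 ± 0.21) and 1 fell (RBCS1B, a Rubisco subunit, log2 fold change -1.0 ± 0.27), and neither held in all 4 fits. Of the 36 photosynthesis genes 11 separated downward and 2 upward, beside 16.8% and 27.7% of all tested genes. By limma 4 of them were lower and 1 higher at an unadjusted p under 0.05. Of 37 cell division genes 2 rose and 4 fell, all within 1 log2 unit, with CYCD3;3 at 5.7 and 7.13 TPM and then 10.2 and 10.1 TPM (log2 fold change 0.59 ± 0.11). Of 13 ribosome biogenesis genes limma called 0, with 2 lower at an unadjusted p under 0.05. A call missed in 2 libraries per group does not show that levels were equal.

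Clock genes gave no stable comparison. By limma 0 of 24 rose or fell, with 1 lower at an unadjusted p under 0.05, and 20 differed more than 2-fold between the T0 libraries, 11 higher and 9 lower in replicate 2. CCA1, a morning repressor, had 318 and 0.13 TPM at T0 and 114 and 14.4 TPM at 12 h (log2 fold change 1.15 ± 1.83 with an adjusted p = 0.711). LHY, its close relative, had 447 and 0.17 TPM at T0 and 235 and 51.3 TPM at 12 h. TOC1 and ELF4, evening genes, had 2.25 and 84.3 TPM and 0.11 and 94.1 TPM at T0, and 6.19 and 24.7 TPM and 1.72 and 20.8 TPM at 12 h. In these 4 genes each 12 h library lay between the T0 libraries. The 12 h libraries differed too, with CCA1 and LHY lower and TOC1 and ELF4 higher in replicate 2. Without T0 replicate 1, 5 clock genes were called higher and 8 lower.

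**Figure D5:**
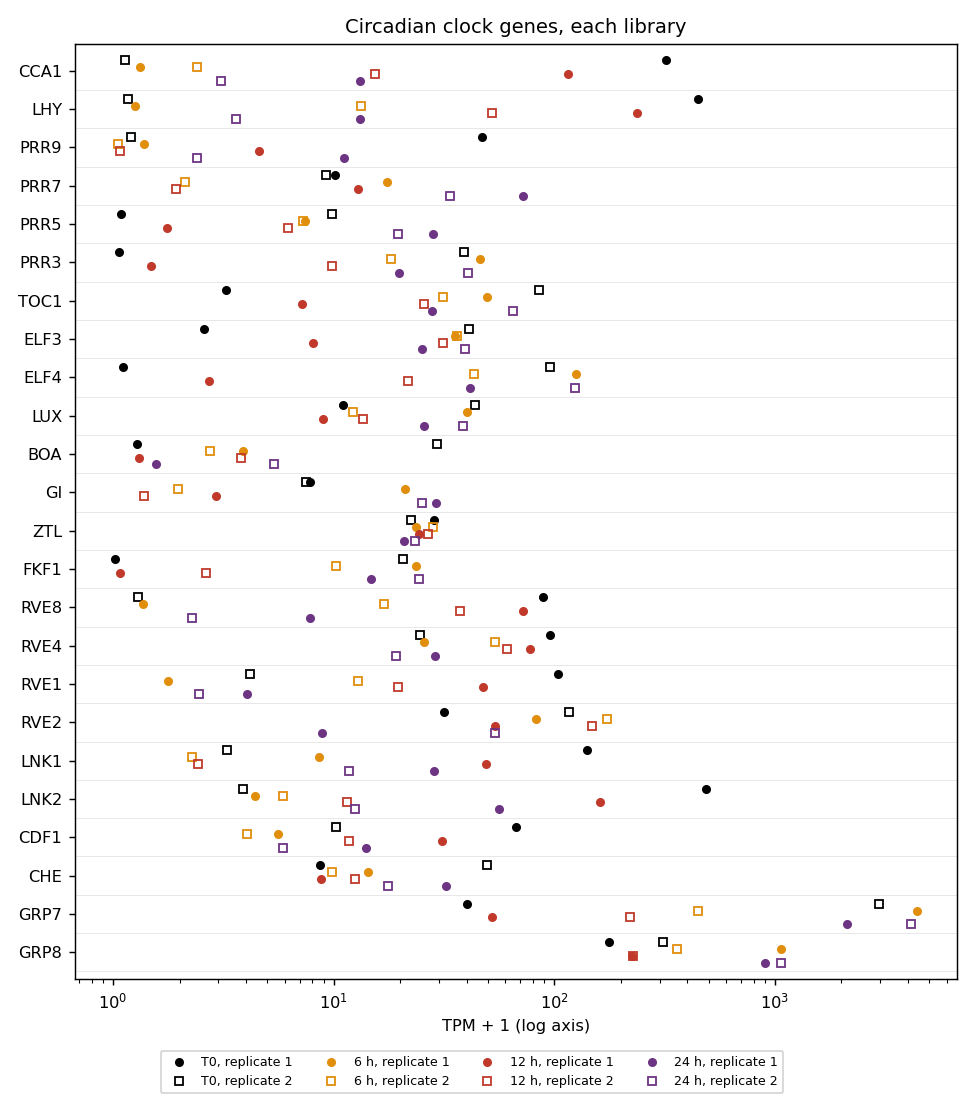
TPM + 1 (log axis) of 24 clock genes in each library of T0, 6 h, 12 h and 24 h, filled circles for replicate 1 and open squares for replicate 2. The black T0 symbols lie far apart in most rows, with CCA1 and LHY high in replicate 1 and TOC1 and ELF4 high in replicate 2, and the red 12 h symbols mostly lie between them.

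Markers of other organs stayed at or near 0. Root hair, root cap and shoot meristem markers (7 genes) were listed at 0 in all T0 and 12 h libraries, and the 3 root endodermis markers summed to 0.06 and 0.32 TPM at T0 and 0.10 and 0.28 TPM at 12 h. Xylem markers summed to 147 and 160.1 TPM at T0 and 147 and 169 TPM at 12 h, and limma called 0 of 7, also at an unadjusted p under 0.05. Cambium markers rose in 2 of 3, WOX4 from 2.51 and 3.28 TPM to 7.28 and 11.5 TPM (log2 fold change 1.39 ± 0.21, adjusted p = 8.51e-05) and HB-8 (log2 fold change 0.53 ± 0.17), and their sum went from 19.2 and 29.7 TPM to 34.4 and 43.2 TPM. In phloem PP2-A1 rose and SEOR1 fell (log2 fold changes 1.03 and -1.0), with sums of 277 and 231 TPM at T0 and 348 and 393 TPM at 12 h. Epidermis markers fell in 2 of 4 (ATML1, log2 fold change -0.76 ± 0.19, and FDH, log2 fold change -0.50 ± 0.14), with sums of 248 and 284 TPM and then 175 and 189 TPM. Of 10 stomatal genes 6 separated downward, against 16.8% of tested genes, while KAT1 rose and SPCH fell (log2 fold changes 1.27 and -0.88). Without 12 h replicate 1 neither was called. Of the marker calls those of WOX4, PP2-A1 and ATML1 held in all 4 fits. What these shifts contribute to the results above was not tested.

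Against mock 6 h 416 genes were higher (2.01%) and 1428 lower (6.91%) at 12 h, and mock 24 h had 2195 higher (10.6%) and 853 lower (4.13%) than 12 h. The balance of these counts depended on scaling. Against 6 h TMM factors gave 814 higher and 857 lower, and quantile normalization 655 and 1021. For 24 h against 12 h TMM factors gave 938 higher and 1378 lower, and quantile normalization 1077 and 1252, with more lower than higher. A change of at least 2-fold from T0 that was also beyond both 6 h and 24 h was found in 37 genes highest at 12 h (0.179%) and 28 lowest at 12 h (0.136%). These counts moved when 1 library was left out, up without T0 replicate 1 and down without 12 h replicate 1. Leaving out a T0 library also removes the T0 pair, the least alike of all, from the shared spread. The comparisons with 6 h and 24 h share the 12 h libraries, and those counts moved by over 1.5 times when either 12 h library was left out (157 to 185 higher and 449 to 666 lower than 6 h). CPC (AT2G46410), a small MYB protein that acts in root hair and trichome patterning, had 0.93 and 0.75 TPM at T0, 0.89 and 0.8 TPM at 6 h, 18.6 and 11.4 TPM at 12 h and 1.3 and 2.3 TPM at 24 h (log2 fold change 3.08 ± 0.49 over T0). With NPA at 12 h CPC had 10.7 and 20.3 TPM. The NPA libraries were not in the comparisons that picked CPC, but they did enter the shared spread of the fit. BGLU1, a glycosyl hydrolase gene, had 14 and 4.02 TPM, 11.1 and 20.15 TPM, 177 and 137 TPM and 29.9 and 31.4 TPM in the same order, and LTP6, a lipid transfer protein gene, 22.9 and 22.3 TPM, 10.7 and 53.7 TPM, 201 and 190.2 TPM and 36.6 and 47.1 TPM. ABCG18, a transporter gene, had 39.8 and 30.04 TPM and CXE13, a carboxylesterase gene, 34.5 and 16.9 TPM at 12 h. With NPA at 12 h BGLU1, LTP6 and ABCG18 stood at 183 and 231 TPM, 203 and 226 TPM and 35.5 and 44.9 TPM.

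Genes lowest at 12 h included PTAC18, PTAC3 and SCA3, which act in or with the transcription machinery of plastids. PTAC18 (AT2G32180) had 78.2 and 94.7 TPM at T0, 68.6 and 57.9 TPM at 6 h, 32 and 20.6 TPM at 12 h and 46.5 and 50.9 TPM at 24 h (log2 fold change -1.70 ± 0.18 over T0, adjusted p = 1.8e-06), and 23.4 and 30.1 TPM with NPA at 12 h. PTAC3 had 26.1 and 39.3 TPM at T0 and 14.3 and 12.9 TPM at 12 h (log2 fold change -1.18 ± 0.15 with an adjusted p = 1.26e-05). SCA3, the nuclear-encoded RNA polymerase of plastids, had 22.8 and 23.9 TPM and 12.5 and 5.47 TPM (log2 fold change -1.38 ± 0.28), and PDE312 32.8 and 37.9 TPM and 18 and 10.8 TPM (log2 fold change -1.28 ± 0.23). The 12 h libraries lay below both T0 libraries in each of these genes, which the rule for a fall demands. All genes that the annotation calls plastid transcriptionally active were then counted, a set chosen after these values were seen that includes PTAC18 and PTAC3, so its count partly restates them and supports nothing. Of 16 tested, 6 fell, 0 rose and 4 were among the 28 genes lowest at 12 h (median log2 fold change -0.34), beside 7.47% fallen and 0.136% lowest of all tested genes. PTAC12 and PTAC14 fell (log2 fold change -1.08 ± 0.16 and log2 fold change -1.39 ± 0.12), while PTAC4, PTAC16 and PTAC7 had log2 fold changes of -0.03, 0.15 and -0.12 and were not called.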

How the data were processed

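The authors deposited TPM values (transcript abundance scaled to a fixed total) per gene, in a mock table and an NPA table. Trim Galore 0.5.0, STAR 2.7.2b, RSEM 1.3.2 and the TAIR10 build are named, per the submitters' processing notes; parameters, annotation and strand setting are not given in the sources used here. All columns have the same sum within rounding, so TPM is relative within a library, and the sequencing depth is unknown, so no counting interval could be given. The 2 T0 columns are identical in both tables and were used once.

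Samples were grouped by the labels' treatment and time. Genes with at least 1 TPM in at least 2 of 30 libraries were tested as log2(TPM + 1) with limma 3.58.1 in R 4.3.3 (trend, 15 groups of 2 in 1 fit), with Benjamini-Hochberg adjustment over all 20654 genes and a threshold of 0.05. A gene rose or fell if it was called and its 4 libraries separated. The design was planned for TPM, and no count test was run. The procedure was tested on simulated data in which a gene had the same spread in every group. The T0 pair here was the least alike of all, so the simulation does not vouch for the calls against T0. Errors after ± are limma standard errors, with 2 libraries per group. They come from a spread pooled over all 15 groups, not from the scatter of the libraries compared. The T0 pair was less alike than the 12 h pair (standard deviation of the difference 1.02 against 0.492). The errors can thus understate how far the T0 libraries differ.

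Genes were named by rule: the 15 largest rises and falls, up to 4 members per list and direction, 11 fixed genes, the 6 most extreme at 12 h each way, and the 6 highest of genes silent in one group (mean TPM of at least 10 where the rule uses it). Other list members are given where they make up a count or belong to a pathway step, and were chosen after their values were seen. Some genes named by the rule are not reported here. The members and the lists were chosen with earlier results of these data known. Symbols came from RefSeq's TAIR10.1 annotation, which matched 37390 of 37686 genes. Of 654 list entries 26 were left out for want of a match. Alternatives were other pseudocounts, filters, scalings, spreads, a minimum fold, a replicate block and leaving out libraries.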

Additional observations from a re-analysis of the deposited data

Results flagged for a closer look

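Genes whose level at 12 h lay beyond T0, 6 h and 24 h were singled out, because the change before 12 h and the change after it ran in opposite directions. Both changes were tested in 1 fit with the same 12 h libraries, so the tests are not independent. There were 37 genes highest at 12 h and 28 lowest. CPC, BGLU1, CXE13, LTP6, RLP49 and ABCG18 were the 6 named among the former, and CP29, PDE312, SCA3, RFC3 (AT3G17170), PTAC18 and PTAC3 among the latter. CP29, a chloroplast RNA-binding protein gene, had 352 and 1845 TPM at T0 and 173 and 304 TPM at 12 h, and its call was lost without T0 replicate 2. RLP49 had 9.56 and 1.05 TPM at T0 and 20.7 and 15.1 TPM at 12 h. Each group had 2 libraries, too few for a search for single outlying libraries.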

How the results depend on the processing

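Depth is unknown, TPM is relative and each group has 2 libraries, so the count of calls rests on the spread shared across 15 groups. For 12 h against T0, with called genes before separated ones where they differ, quantile normalization gave 3150 and 3118 lower. Fitting the 2 groups alone gave 204 higher and 16 lower, a spread for each group 729 and 154, and a minimum log2 fold change of 1 gave 445 and 85. TMM factors gave 3305 called and 3267 separated higher, and 2322 and 2302 lower. The range when a library was left out was 2401 to 5604 higher and 936 to 2992 lower, and 1793 and 614 were called in all 4 such fits. For 12 h against 6 h TMM gave 814 higher and 857 lower, quantile normalization 655 higher, the 2 groups alone 0 and 0, and the minimum fold 5 and 2; leaving out a library gave 157 to 905 higher and 449 to 2717 lower. For 24 h against 12 h TMM gave 938 higher and 1378 lower, quantile normalization 1077 higher, the 2 groups alone 0 and 0, and the minimum fold 4 and 0; leaving out a library gave 367 to 4541 higher and 224 to 1527 lower. Genes highest at 12 h numbered 60 with TMM, 21 with a mean TPM of at least 5, and 0 with the 2 groups alone or the minimum fold, and 16 to 184 without a library. Genes lowest at 12 h numbered 15 with TMM, 42 and 16 with pseudocounts of 0.1 and 5, 17 with a spread for each group, 0 with the 2 groups alone or the minimum fold, and 19 to 162 without a library. A fit without a T0 library drops the T0 pair, the least alike of all, from the shared spread. Calls then also grew in number for 12 h against 6 h and 24 h against 12 h, which hold no T0 library. The causes were not tested.

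Some genes that were not called changed sign. When a library was left out, the log2 fold change ranged from -1.75 to 0.44 for MYC2, from -0.67 to 0.87 for ERF109, from -2.92 to 5.22 for CCA1, from -2.01 to 6.57 for LHY, from -2.65 to 2.06 for TOC1 and from -3.63 to 2.79 for ELF4. For the last 4, the clock genes, the extremes came from leaving out T0 replicate 2 or T0 replicate 1. It was -0.081 for ERF109 with quantile normalization and 0.47 for ELF4 with a pseudocount of 0.1. Of the 165 named genes 92 lost their call with a spread for each group, 129 with the 2 groups alone and 2 with TMM.

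The labels number replicates but do not say that a number pairs samples. Deviations of same-numbered libraries of T0 and 12 h correlated across genes at 0.39, and with 2 pairs this decides nothing. With the replicate block 3417 genes were called higher and 1506 lower (3388 and 1491 also separated), 380 and 1285 for 12 h against 6 h, 1970 and 774 for 24 h against 12 h, with 35 highest and 27 lowest at 12 h.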
